A study of Drosophila melanogaster with 4 samples.

Results

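RPD3 clusters on the distal part of chromosome arm 3R were stretches of the fly genome where chromatin bound by the histone deacetylase RPD3 was enriched over input. The clusters were chosen by 3 values of the authors' combined list of enriched regions: position on 3R with a midpoint beyond 2 Mb from the centromere end of the assembled arm, a width under 10000 bp, and the call of enrichment itself. The rule took 1394 of the 7145 clusters of the combined list. It left out 140 clusters within the first 2 Mb of 3R and 74 distal clusters of 10 kb or more.

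The data came from nuclei of Drosophila melanogaster larvae at the third instar, of the wild-type strain Oregon-R, kept as Oregon-R-modENCODE. There were 2 ChIP samples, precipitated with the antibody RPD3-Q3451, and 2 Input samples of the same strain and stage without precipitation. Each Input served as the background of the ChIP sample with the same replicate number and has no list of its own. Whole-larva nuclei mix many cell types, so RPD3 in few cells and little RPD3 in many cells cannot be told apart.

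RPD3 is a class I histone deacetylase, the fly relative of mammalian HDAC1 and HDAC2. It removes acetyl groups from histone tails and is the catalytic subunit of corepressor complexes such as SIN3, NuRD and CoREST, which are brought to DNA by other factors. Deacetylase subunits have been mapped both at silenced genes and at the promoters of active genes, where they act against histone acetyltransferases. Positions below are on FlyBase release 5 of the genome, 1-based, and clusters are identified by position, since no gene annotation of that release was set against them.

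In the combined list, RPD3 on distal 3R formed mostly narrow clusters with a long tail of wide, high-scoring ones. The 1394 clusters covered 4.25 Mb, or 16.4% of the 25.9 Mb between the 2 Mb bound and the outermost cluster edge, at 53.8 clusters per Mb. The median width was 2191 bp, with 25th and 75th percentiles of 1536 and 4003 bp, and the widths ran from 1001 to 9901 bp. The median score was 0.454, with quartiles of 0.361 and 0.865 and a highest value of 3.27. The score is the authors' own value per cluster, on a scale not given in the sources used here, and it describes or ranks clusters within a list. The widths closest to the 10000 bp bound were 9901, 9850 and 9784 bp on the inside, with scores of 0.847, 1.25 and 1.06. On the outside they were 10019, 10030 and 10082 bp, with scores of 1.07, 0.702 and 1.12. At the 2 Mb bound, the nearest clusters inside had scores of 0.257, 0.364 and 0.383, and the nearest outside 0.480, 0.399 and 0.439.

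The same stretch held 1126 clusters under 10 kb in ChIP replicate 1 and 1024 in ChIP replicate 2, a mean of 1075 ± 72.1 (SD, n = 2). They covered 14.4% of the stretch in replicate 1 and 12.6% in replicate 2, a mean of 13.5% ± 1.24. Replicate clusters were wider than those of the combined list, with medians of 2591 bp in replicate 1 and 2713 bp in replicate 2. Their median scores were 0.791 and 0.862. No replicate cluster on distal 3R was narrower than 1301 bp, whereas the combined list went down to 1001 bp. Of the replicate 1 clusters, 1016 overlapped a combined cluster under 10 kb, 106 a combined domain of 10 kb or more (4 of them both kinds), and 8 no combined cluster. Of the replicate 2 clusters, 871 overlapped a combined cluster under 10 kb, 146 a wider domain and 7 none. The lists give no read depth, and nothing is recorded between clusters.

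On distal 3R, barely more clusters were overlapped by both replicates than were not, and both covered a little over 50% of the clusters' sequence. Both replicates overlapped 723 of the 1394 clusters by at least 1 bp. This was 51.9% of the clusters (Wilson 95% interval 49.2 to 54.5%). Over the whole combined list, which for these shares also holds domains of 10 kb or more, the share in both was 53.7%. Replicate 1 alone overlapped 236 clusters, or 16.9%, against 15.5% over the whole list. Replicate 2 alone overlapped 75, or 5.38%, against 4.98%. Neither replicate overlapped 360, or 25.8% (23.6 to 28.2%), against 25.7%. These 4 shares of clusters lay within 2 percentage points of the whole list. Clusters overlapped by both held 74.2% of the bases of the distal 3R clusters, against 78.0% over the whole list, which includes domains of 10 kb or more, and 73.2% over its clusters under 10 kb. An overlapped cluster need not be covered throughout. Of the bases of the distal 3R clusters, replicate 1 covered 75.4%, replicate 2 62.3%, both 56.1% and neither 18.4%. Over the clusters of the whole list under 10 kb, both covered 54.7% and neither 19.8%. The intervals cover counting error only, and the combined list was made from the replicates, so no test was made.

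The clusters in both replicates were the wide and high-scoring ones. Their median score was 0.845 and their median width 3781 bp. The clusters in replicate 1 alone had medians of 0.362 and 1911 bp, those in replicate 2 alone 0.339 and 1753 bp, and those in neither 0.371 and 1216 bp. Of the 360 in neither, 220 (61.1%) were narrower than 1301 bp, the smallest width in either replicate list. Over the whole combined list this held for 1067 of 1839 in neither (58.0%). All clusters found in fewer than both replicates had a median score of 0.364, so the difference of medians was 0.481. Over the whole list, domains of 10 kb or more included, this difference was 0.490. The combined list was made from the replicates, and a wider cluster offers more bases to overlap. How far the contrasts in width and score follow from that was not tested.

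**Figure D1:**
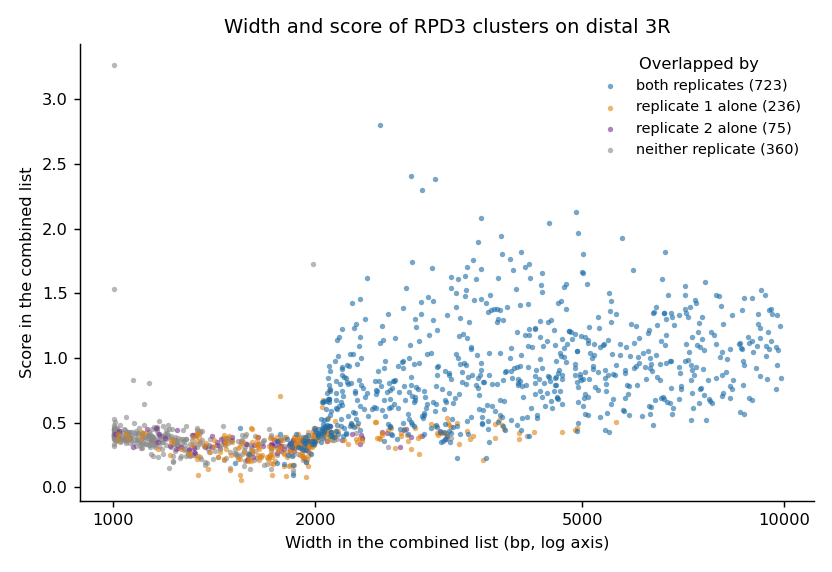
Each point is 1 of the 1394 combined clusters under 10 kb on distal 3R, with its width on a log axis and its score in the combined list, coloured by the replicates that overlap it. Clusters in both replicates (723) fill the wide, high-scoring side, and those in neither (360) the narrow, low-scoring side, with the single point at 3.27 as the highest.

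The share of clusters in both replicates changed steeply with score between 0.4 and 0.6. Of 367 clusters with scores of 0.3 to 0.4, 9.26% were in both replicates and 51.2% in neither. The share in both was 30.4% of 240 clusters from 0.4 to 0.5, 81.7% of 60 from 0.5 to 0.6, and 96.4% of 83 from 0.6 to 0.7. From 0.8 to 1.0 it was 148 of 150, and from 1.0 to 1.5 all 98 and 102 clusters of the bins at 1.0 to 1.2 and 1.2 to 1.5 were in both. Above 1.5 it was 50 of 53, and the other 3 were narrow clusters that neither replicate listed.

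**Figure D2:**
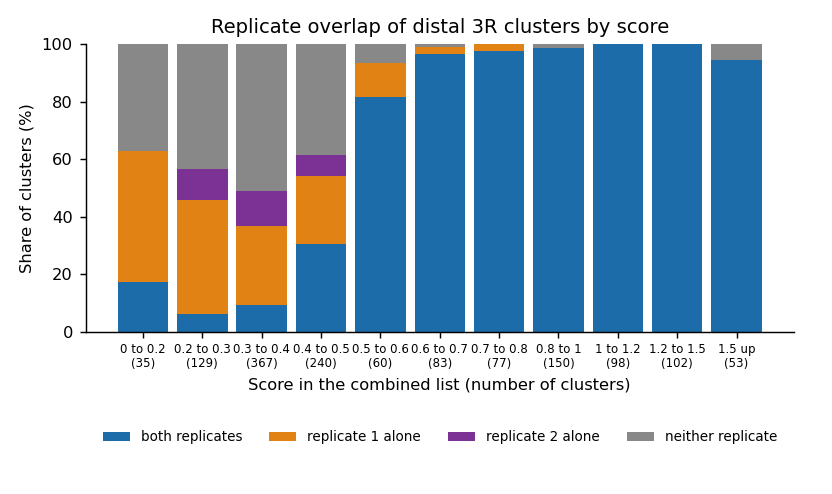
Bars give the percent of distal 3R clusters in each bin of combined-list score that were overlapped by both replicates, by replicate 1 alone, by replicate 2 alone or by neither; the number of clusters per bin is in parentheses. The share in both lies at 30.4% from 0.4 to 0.5 and at 81.7% from 0.5 to 0.6.

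Clusters were also compared within quartiles of width, which narrows the range of width but does not remove its part in the score. In the widest quartile, 4003 to 9901 bp, 341 of 349 clusters were in both replicates, with a median score of 0.978 against 0.429 for the 8 others. In the quartile from 2192 to 4002 bp, 281 of 348 were in both, with medians of 0.799 and 0.406. In the quartile from 1539 to 2190 bp, 100 of 348 were in both, and the medians lay closer, at 0.447 and 0.331. The narrowest quartile held 1 cluster in both replicates, with a score of 0.191, and 348 others with a median of 0.374. The median score of clusters in both replicates was thus higher in the 3 wider quartiles. Within each of these the clusters in both were also wider, with medians of 5827 against 4455 bp in the widest quartile, 2979 against 2750 bp in the quartile from 2192 bp and 2058 against 1830 bp in that from 1539 bp. In this last quartile score and width went together across clusters (Spearman's rho 0.66), so the difference in score there cannot be told apart from that in width.

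The 2 replicates ordered the same clusters alike by score and gave them similar edges. On distal 3R, 716 pairs of replicate clusters overlapped each other and nothing else. Across pairs, which share their libraries and are not independent, Spearman's rho of the scores was 0.88 and Pearson's r was 0.90. The median score of the pairs was 0.934 in replicate 1 and 0.921 in replicate 2. A common scale of the lists is not established, so scores of different lists are given side by side and by rank. Among the 10 highest pairs of each replicate 6 were the same, among the 50 highest 37, and among the 100 highest 74.

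**Figure D3:**
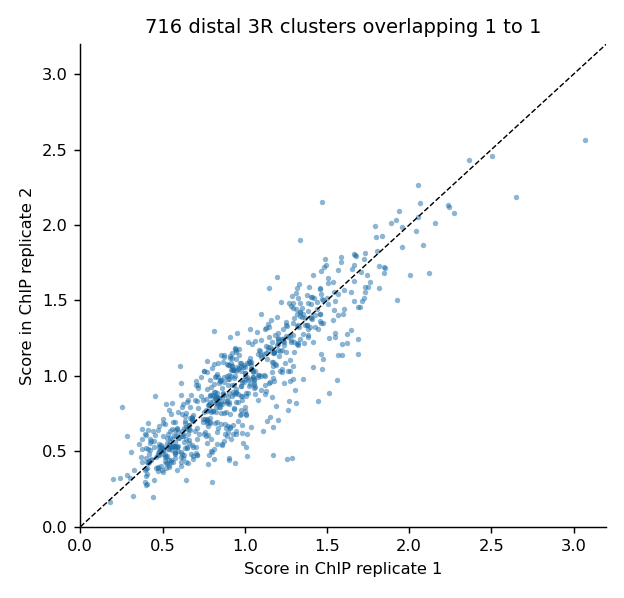
Each point is 1 of 716 pairs of clusters on distal 3R that overlap 1 to 1, with its score in ChIP replicate 1 on the horizontal axis and in ChIP replicate 2 on the vertical axis; the dashed line marks equal scores. The points follow the line up to the highest pair, at 3.07 and 2.56.

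Starts of paired clusters differed by a median of 138 bp and ends by 136 bp in absolute terms, and 60.5% of starts and 60.3% of ends lay within 200 bp of each other. Differences of over 1000 bp occurred at 66 starts and 70 ends. Starts were the same to the base in 2 pairs and ends in 3. Replicate 2 clusters were narrower in 453 pairs and wider in 263, with a median difference of -108 bp, taken as replicate 2 minus replicate 1. From the lowest to the highest quartile of mean score, pairs placed their midpoints a median of 151, 120.5, 147 and 131 bp apart. These medians followed no steady order.

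**Figure D4:**
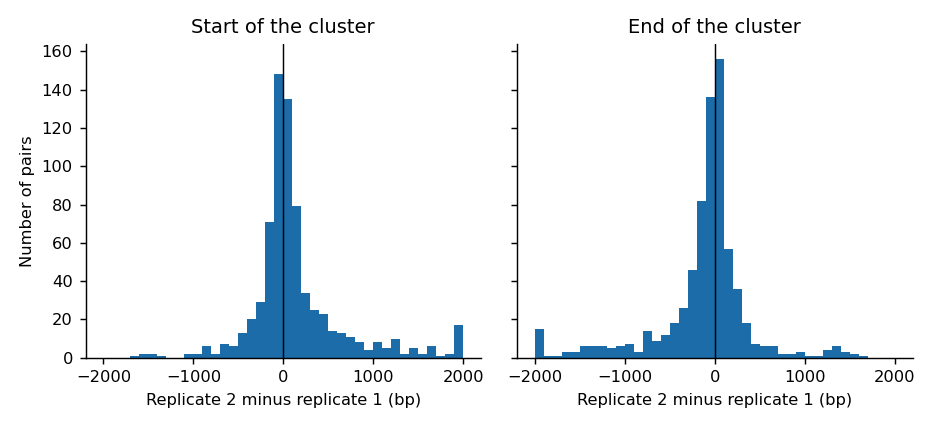
Histograms of the start and end positions of 716 paired distal 3R clusters, as replicate 2 minus replicate 1 in bp, in bins of 100 bp with values beyond 2000 bp placed in the outermost bins. Most pairs lie within 200 bp of the vertical line at 0, with 60.5% of starts and 60.3% of ends.

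Seen from each replicate, the clusters that the other lacked were weak. Of the 1126 replicate 1 clusters, 854 overlapped a replicate 2 cluster of any width, which is 75.8% (73.3 to 78.3%), against 77.3% over the whole list. Of the 1024 replicate 2 clusters, 936 overlapped a replicate 1 cluster, which is 91.4% (89.5 to 93.0%), and the whole list also gave 91.4%. In replicate 1 the 282 clusters of the highest score quartile were all overlapped, and 119 of 282 in the lowest. In replicate 2 the counts were 255 of 256 in the highest quartile and 188 of 256 in the lowest. The exception lay at 3R:17128640-17130058, which replicate 2 scored at 2.18, rank 6 of its distal 3R list, at a width of 1419 bp. No replicate 1 cluster overlapped it, and the nearest combined cluster lay 2554 bp away. The next highest clusters of replicate 2 alone, at 3R:18436000-18437735 and 3R:23415397-23416827, had scores of 0.665 and 0.658. In replicate 1 alone the highest were at 3R:20084316-20086429 (score 1.13), 3R:12358625-12360699 (1.10) and 3R:7324760-7326818 (0.969), each between 2059 and 2114 bp wide.

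In the combined list a cluster was usually wider than its replicate clusters. The 613 clusters that overlapped 1 cluster in each replicate had a median score of 0.839 in the combined list, with 0.927 for the replicate 1 clusters and 0.890 for those of replicate 2. The combined scores ranked these clusters much as replicate 1 did (Spearman's rho 0.97) and replicate 2 (0.95). Their combined width had a median of 3392 bp, against 2857 bp for the replicate 1 clusters and 2713 bp for those of replicate 2. The combined cluster was wider than both replicate clusters in 519. Clusters found in replicate 1 alone had a median score of 0.360 in the combined list and 0.518 in replicate 1, over 232 clusters with 1 overlapping replicate cluster. Those in replicate 2 alone had 0.339 in the combined list and 0.489 in replicate 2, over 75 clusters. The way the authors joined the replicates is not given in the sources used here.

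A smaller group of wide clusters was split in the replicates. In all, 114 clusters (8.18%) overlapped more than 1 cluster in at least 1 replicate, with a median width of 6770 bp and a median score of 0.862. No such share is given here for the whole combined list. The 4 clusters split most, into 5 replicate clusters each over both lists, included 3R:2897056-2906618 (9563 bp, score 1.13, 3 clusters in replicate 1 and 2 in replicate 2). Of the other 3, those with the highest scores were 3R:20741828-20749437 (7610 bp, 0.715) and 3R:7583843-7591304 (7462 bp, 0.652). In the other direction, 14 clusters of replicate 1 and 2 of replicate 2 each overlapped more than 1 of the combined clusters.

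The 4 highest-scoring clusters found by both replicates were 2500 to 3022 bp wide, below the median of 3781 bp for clusters in both. The 10 highest were spread along the arm. First was 3R:10956363-10958862, 2500 bp wide, with a combined score of 2.80. Replicate 1 scored it at 3.07 and replicate 2 at 2.56, the highest of distal 3R in each. In the replicates it spanned 2396 and 2443 bp, and 6 other combined clusters had midpoints within 50 kb. Next came 3R:17443843-17446620, which the combined list, replicate 1 and replicate 2 scored at 2.40, 2.65 and 2.19, in a denser setting of 12 others within 50 kb. The cluster at 3R:3634585-3637606 (2.38, 2.50 and 2.46 in the same order) stood more alone, with its nearest neighbour 12331 bp away and 3 others within 50 kb. The cluster at 3R:19993780-19996660 (2.30, 2.36 and 2.43) had 17 others within 50 kb. These 4 ranked between 1 and 5 in both replicate lists of distal 3R.

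The remaining 6 of the 10 highest in both replicates were wider, between 3536 and 5739 bp, and scored from 1.92 to 2.13 in the combined list. They lay at 3R:26631031-26635933, 3R:18180777-18184312, 3R:11970339-11974806, 3R:13541535-13546471, 3R:9226504-9230284 and 3R:16150972-16156710. Replicate 1 scored them from 1.92 to 2.27 and replicate 2 from 1.96 to 2.26. The last of them was 5842 bp wide in replicate 1 and 3601 bp in replicate 2, the largest difference in width among the 10. In the outermost stretch, beyond 27 Mb, the highest cluster in both replicates was at 3R:27568330-27577055, 8726 bp wide, with a score of 1.46.

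The cluster with the highest combined score on distal 3R was in neither replicate. It lay at 3R:20037006-20038006, spanned 1001 bp, the minimum width of the combined list, and scored 3.27, rank 2 of all 7145 clusters. Within 20 kb on either side, 4 clusters in both replicates had scores of 0.778 to 1.38. The other highest in neither replicate were at 3R:3533197-3535183 (1987 bp, score 1.73), 3R:2242375-2243376 (1002 bp, 1.53), 3R:8302210-8303278 (1069 bp, 0.828) and 3R:16975052-16976182 (1131 bp, 0.804). The cluster at 3533197 had no other combined cluster within 50 kb, and its nearest neighbour was 63257 bp away. For comparison, 75% of the clusters in neither replicate scored at most 0.405.

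Along the arm, both replicates traced the same alternation of dense and sparse stretches. In 52 windows of 500 kb, clusters under 10 kb covered 3.75 to 26.4% of a window in replicate 1 (median 13.4%) and 3.09 to 25.0% in replicate 2 (median 11.4%). Spearman's rho and Pearson's r of the covered share were both 0.93 over these 52 neighbouring windows, which are not independent. Replicate 1 covered more than replicate 2 in 47 of 52. Median scores per window followed each other less (Spearman's rho 0.44).

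**Figure D5:**
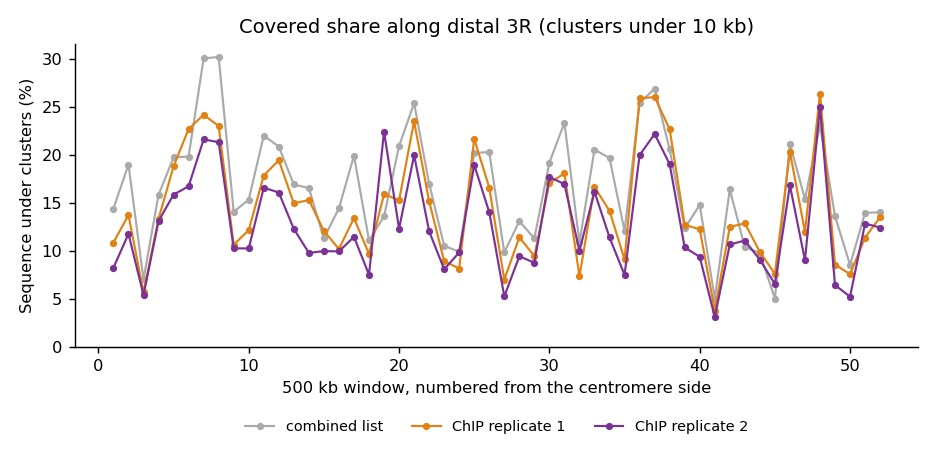
Percent of each 500 kb window of distal 3R under clusters narrower than 10 kb, in the combined list, ChIP replicate 1 and ChIP replicate 2; windows are numbered from the centromere side and the last of the 52 is shorter. The lines move together, with highs of 30.2% in the combined list in window 8 and lows of 4.99% in window 45.

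Among clusters under 10 kb, the densest windows of the combined list were those at 5.5 to 6.0 Mb (30.2%, 52 clusters), 5.0 to 5.5 Mb (30.0%, 41 clusters) and 20.0 to 20.5 Mb (26.9%, 43 clusters). In replicate 1 they were 23.0%, 24.2% and 26.0% covered, and in replicate 2 21.3%, 21.6% and 22.2%. The highest share in both replicates was at 25.5 to 26 Mb, with 26.4% in replicate 1, 25.0% in replicate 2 and 23.1% in the combined list. With domains of 10 kb or more included, the combined list covered most at 19.5 to 20 Mb (39.6%) and at 25.5 to 26 Mb (38.4%), which held 5 and 6 such domains. The sparsest under 10 kb were at 24 to 24.5 Mb (4.99%, 11 clusters), 22.0 to 22.5 Mb (5.00%, 12 clusters) and 3.0 to 3.5 Mb (7.02%, 14 clusters). Replicate 1 covered 7.59%, 3.75% and 5.64% of these and replicate 2 6.53%, 3.09% and 5.38%. The window at 24 to 24.5 Mb held 2 domains of 10 kb or more and was 9.72% covered with them, above the other 2 windows, which held none. In 11 windows the combined list covered less than replicate 1, and each of the 11, that at 24 to 24.5 Mb among them, held combined domains of 10 kb or more, which the rule leaves out. At 11 to 11.5 Mb, for example, 5 such domains stood beside 13.6% covered by narrower combined clusters, against 15.9% and 22.4% in replicates 1 and 2.

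Dense windows lay on both sides of the usual score. The windows at 5.5 to 6.0, 5.0 to 5.5 and 20.0 to 20.5 Mb had median scores of 0.418, 0.463 and 0.476 in the combined list, beside 0.454 for all 1394 clusters. That at 20.0 to 20.5 Mb had medians of 0.891 and 0.905 in replicates 1 and 2, above the 0.791 and 0.862 of distal 3R. Over the 52 windows, covered share and median score correlated weakly (Spearman's rho 0.26 and 0.25 for replicates 1 and 2). In successive stretches of 5 Mb from 2 to 27 Mb, the combined list had 60.8, 54.0, 52.0, 60.2 and 43.8 clusters per Mb. Replicates 1 and 2 covered 15.5% and 13.4% of the first stretch, 16.5% and 14.3% of that at 17 to 22 Mb, and 12.1% and 10.3% of that at 22 to 27 Mb. Median scores of the combined list varied little between these 5 stretches, from 0.441 to 0.465.

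The longest empty stretch, counting clusters of every width, was shared by the 3 lists. It ran over 336 kb in replicate 1 (3R:23791085-24126776), 358 kb in replicate 2 (3R:23792737-24150609) and 333 kb in the combined list (3R:23792740-24125941). The next longest of the replicates also coincided. One covered 290 and 293 kb at 3R:19204226-19494335 and 3R:19201197-19494562, and the other 262 kb in each, at 3R:6720415-6981923 and 3R:6720317-6982169. Whether reads could be placed throughout them is unknown, and a stretch without clusters is not shown to lack RPD3.

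Clusters on distal 3R often had a close neighbour, about as often as those on distal 2L and 3L. Of the 1393 gaps between neighbouring clusters of the combined list, 456 (32.7%) were under 2000 bp, and the median gap was 4735 bp. The shares were 29.6% in replicate 1 and 26.0% in replicate 2, with median gaps of 6013 and 6198 bp. On distal 2L the shares were 34.4%, 28.3% and 27.4% in the combined list, replicate 1 and replicate 2. On distal 3L they were 34.2%, 27.2% and 25.4%. Chained by gaps under 2000 bp, the combined clusters of distal 3R formed 938 groups, of which 653 were single clusters. In groups of 3 or more stood 377 clusters (27.0%). The longest chain held 9 clusters over 41102 bp at 3R:2888650-2929751 and covered 93.9% of it. Its 5 clusters in both replicates had scores of 0.400 to 1.34, and the other 4, between them or at its edge, were in neither replicate and scored 0.239 to 0.418. Counting neighbours of every width, domains of 10 kb or more included, a neighbour within 2000 bp was present for 61.4% of the clusters in both replicates, 49.2% of those in replicate 1 alone, 64.0% of the 75 in replicate 2 alone and 48.9% of those in neither.

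Set beside the distal parts of 2L and 3L, chosen by the same rule, distal 3R had similar values. Replicates 1 and 2 covered 14.4% and 12.6% of distal 3R, 13.4% and 11.7% of distal 2L, and 14.1% and 12.2% of distal 3L. Median widths were 2591 and 2713 bp on 3R, 2470 and 2547 bp on 2L, and 2522 and 2528 bp on 3L. Median scores were 0.791 and 0.862 on 3R, 0.766 and 0.818 on 2L, and 0.746 and 0.800 on 3L. In both replicates 3R thus had the highest of the 3 medians for width and score. In the combined list this held for score, with 0.454 on 3R, 0.448 on 2L and 0.441 on 3L. It did not hold for width there, with 2191 bp on 3R, 2231 bp on 2L and 2165 bp on 3L. In replicates 1 and 2 the median score on 3R exceeded that on 2L by 0.0248 and 0.0449. It exceeded that on 3L by 0.0441 and 0.0625. A common scale of the lists is not established, and replicate 2 had the higher median score on all 3 arms. The gap between replicates is therefore no yardstick for arms compared inside 1 replicate. Both replicates overlapped 51.9% of the combined clusters on 3R, 54.3% on 2L and 50.3% on 3L. The arms were not tested against each other, since their values come from the same 2 ChIP samples, and 2 pairs of values are too few for a test. At the top of the score range, distal 3R held 106 of the 550 replicate 1 clusters at or above the 90th percentile of the whole list, or 19.3%, and 99 of 500 in replicate 2, or 19.8%. Its shares of all clusters were 20.5% in each. In the combined list it held 133 of 715, or 18.6%, against 19.5% of all clusters. At the 50th, 75th, 95th and 99th percentiles there its shares were 17.8%, 17.5%, 19.6% and 13.9%, the last being 10 of 72 clusters. The median score of the whole combined list, domains of 10 kb or more included, was 0.488.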

How the data were processed

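The 2 RPD3 ChIP samples each have 1 list of enriched regions, and a further list combines them. Per the submitters' processing notes, the aligner was Bowtie 0.12.7. Regions lie on FlyBase release 5, per the file headers. Each region has a start, an end and 1 score deposited by the authors. Not given in the sources used here are the region caller, its thresholds, the scale of the score and the joining of replicates. The lists hold no read counts, so depth is unknown. The 2 Input samples have no list and were not analysed. Nothing in the labels says that the replicates were collected separately, and their spread may be technical.

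Clusters were selected on 3R by width (under 10000 bp) and midpoint (above 2 Mb), and compared by overlap of at least 1 bp. Distal 2L and 3L leave out the 2 Mb at their own centromere ends. Covered shares divide by the length from the bound to the outermost cluster edge. Shares carry Wilson 95% intervals. Overlap calls and covered bases were tested on simulated data. Python 3.11.15, pandas 2.3.3 and scipy 1.17.1 were used. Named clusters follow a rule: the 10 highest in both replicates, the highest per 5 Mb, the 3 nearest either side of each bound, the 5 highest in neither, the 3 most split, and the 3 highest of each replicate alone. Windows are the 3 densest and 3 sparsest. Empty stretches, chains, the neighbourhoods of clusters and the windows at 11 to 11.5, 19.5 to 20 and 25.5 to 26 Mb were chosen after their values were seen. The members, lists and rules were chosen with earlier results of these data known. The gene table used here is of release 6, which is another build, and no gene was assigned.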

Additional observations from a re-analysis of the deposited data

How the results depend on the processing

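Of 74 values recomputed under other settings, 35 stayed within the limit used for them, 38 moved further and 1 changed sign. For numbers of clusters this limit was a fixed ratio to the main count, looser than the SD between replicates. By it, the combined count of 1162 with the 5 kb bound was still taken as unmoved from 1394. For shares of clusters in both or neither replicate the limit was the Wilson interval. For rank correlations it was an interval from the number of pairs or windows. Such intervals treat clusters, pairs and windows as independent, which they are not, so the tally is a description and not a test. Counting overlaps only from 50% of the shorter cluster, and with the bound at 4 Mb, none moved beyond its limit. The combined count at 4 Mb was 1292. In the higher-scoring 50% of each list 61.7% of distal 3R clusters were in both replicates and 20.6% in neither. With clusters of at least 1301 bp the shares were 63.0% and 12.2%, and with a width bound of 5 kb 42.3% and 31.0%. Used without 1 replicate, the other overlapped 57.2 to 68.8% and missed 31.2 to 42.8%. The higher-scoring 50%, which holds fewer clusters by construction, gave 637, 550 and 521 clusters in the combined list, replicate 1 and replicate 2. In the same order it gave median widths of 4146, 3967 and 3587 bp, covered shares of 11.3%, 9.35% and 8.35%, and 17.5%, 14.0% and 12.7% of gaps under 2000 bp. The 5 kb bound gave 1979, 2259 and 2482 bp and 10.1%, 9.25% and 8.99%, as it removes wide clusters. With clusters closer than 200 bp merged, short gaps made up 26.8%, 25.3% and 22.7%, and the combined list covered 14.9%, since merged clusters of 10 kb or more leave the set. With every width kept, short gaps made up 36.3% in the combined list. Leaving out a replicate, the difference of median scores ran from 0.327 to 0.431. Within quartiles of width from narrow to wide it was -0.183, 0.117, 0.393 and 0.549, where the first rests on 1 cluster in both replicates. The rank correlation of paired scores was 0.80 in the higher-scoring 50% and 0.85 under 5 kb; causes not named here were not tested. No paired analysis was possible because there is no list for either Input. Without the depth, a missing cluster cannot be told from one too weak to be listed.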

Other observations

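Scores on distal 3R changed steeply near a width of 2000 bp in all 3 lists, and replicate overlap did so in the combined list and in replicate 1. This limit, and a score of 0.8 as a mark, were chosen after the values were seen. Among replicate 1 clusters over 2000 bp, 553 of 819 (67.5%) scored at least 0.8, and among those up to 2000 bp 1 of 307 did. In replicate 2 the counts were 556 of 781 (71.2%) over 2000 bp and 1 of 243 up to it. In the combined list they were 398 of 796 (50.0%) and 5 of 598. The 1 such narrow cluster of replicate 2 was that at 3R:17128640-17130058, and the 5 of the combined list were the highest-scoring clusters in neither replicate.

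The change took place within a narrow range of width. Replicate 1 clusters had a median score of 0.478 for 58 of 1901 to 2000 bp, 0.615 for 87 of 2001 to 2100 bp and 0.798 for 52 of 2101 to 2200 bp. In replicate 2 these medians were 0.475, 0.589 and 0.682. In the combined list they were 0.343, 0.454 and 0.544, and the clusters in both replicates made up 22.2%, 64.9% and 73.9%. Of the replicate 1 clusters of these widths, 37.9%, 77.0% and 82.7% overlapped a replicate 2 cluster. Of the replicate 2 clusters, 78.6%, 90.9% and 95.8% overlapped a replicate 1 cluster, and the bins just below had 79.4% at 1701 to 1800 bp and 84.2% at 1801 to 1900 bp. Over 2000 bp, wider clusters had higher scores, with a Spearman's rho across clusters of 0.45 in replicate 1, 0.52 in replicate 2 and 0.48 in the combined list. Up to 2000 bp the values were -0.06, 0.02 and -0.45. In the combined list the median score was 0.402 at 1001 to 1100 bp, 0.366 at 1101 to 1300 bp, 0.330 at 1301 to 1500 bp, 0.292 at 1501 to 1700 bp and 0.329 at 1701 to 2000 bp, with the lowest value in the bin of 1501 to 1700 bp.

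The same contrast stood in the whole lists, where 68.9% of replicate 1 clusters over 2000 bp and 0.866% of those up to 2000 bp scored at least 0.8, and 71.6% and 1.63% in replicate 2. On distal 3L no replicate cluster up to 2000 bp reached 0.8, of 272 in replicate 1 and 239 in replicate 2, and on distal 2L 2 of 253 and 2 of 230 did. Whether the authors' caller sets this limit was not tested.

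Exactly equal scores were shared by 78 distal 3R clusters of the combined list (5.60%), at 35 values, and 60 of them were in neither replicate. Their median width was 1162.5 bp. In the whole combined list, where a value has more clusters to recur in, 1150 clusters (16.1%) shared a score. The values 0.378 and 0.431 each occurred 5 times, at clusters spread from 5778987 to 27055133 and from 4041048 to 27540112.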
